A study of Mus musculus with 14 samples.

Results

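Brown adipocytes are fat cells that burn lipid for heat, and this account follows 10 genes of that program in the superior mesenteric artery (SMA), the vessel that feeds most of the intestine. The genes are Ucp1, Cidea, Dio2, Elovl3, Ppargc1a, Prdm16, Zic1, Cpt1b, Fabp3 and Adrb3, taken by symbol from a table of 46095 gene symbols. They were selected on their measured levels in these same mice, so their levels and fold changes are given as descriptions. All 10 symbols were in the table, and 9 of them passed the filter on low counts, together with 17693 genes in all. Zic1 did not pass.

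RNA was sequenced from the SMA of 14 mice of strain C57BL/6, aged 8 weeks. The normal groups held 3 wild-type mice (WT, Drp1 +/+) and 4 mice called Drp1 KO, and the ischemia groups, in which blood loss caused the ischemia, again held 3 WT mice and 4 KO mice. Drp1 is the protein of the gene Dnm1l, which divides mitochondria. The KO mice carried the change on 1 allele only: the sample labels call the genotype flox/+, and the study's text describes a heterozygous deletion of exon 2, so every KO mouse still had a normal copy. The labels give 2 h for the ischemia libraries, whereas the study's text gives a longer period. Each library came from the whole vessel and not from sorted cells. A higher level can therefore come from more brown adipocytes in the piece or from more RNA per brown adipocyte. It can also come from other cells that express the gene or from a change in the rest of the library. These cannot be told apart.

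In a brown adipocyte, noradrenaline from sympathetic nerves acts on beta-adrenergic receptors and raises cAMP, which activates protein kinase A. The kinase releases fatty acids from lipid droplets and switches on genes of heat production. The fatty acids are burned in mitochondria, where UCP1 lets protons flow back across the inner membrane without making ATP. Brown fat is a known part of the tissue around several arteries.

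Total counts were 25612646 to 40255851 per mouse, and mitochondrially encoded genes took 6.46% to 25.1% of them. Dnm1l had 1849 to 2930 reads in every mouse, and its level was 63.8, 65.7 and 90.9 CPM (reads scaled to the size of the library, with TMM factors) in WT mice and 54.8 to 62.2 CPM in KO mice under normal conditions. Under normal conditions every KO mouse was therefore below every WT mouse, beside 1.9% of the genes tested, though the nearest mice were close. After ischemia it was 63.1 to 81.0 CPM in WT and 60.0 to 76.0 CPM in KO mice, so the genotypes overlapped there. Arterial smooth muscle markers summed to 7461 to 38024 CPM and endothelial markers to 675 to 1874 CPM, so both vessel cell types were present in each library. Markers of heart muscle stood apart in 3 libraries: 479 CPM in KO normal mouse 4, 1159 CPM in KO ischemia mouse 3 and 8030 CPM in KO ischemia mouse 4, against 11.7 to 67.9 CPM in the other 11. WT normal mouse 3 was the only library from lane 1 (all others came from lane 8), so an effect of the lane and the mouse itself cannot be told apart.

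Ucp1, the uncoupling protein that defines the brown adipocyte, was measured at 40.2, 3948 and 639 CPM in the 3 WT normal mice and at 557, 2784, 1149 and 4072 CPM in the 4 KO normal mice. After ischemia it was 66.3, 776 and 304 CPM in WT mice and 603.5, 3272, 2640 and 2921 CPM in KO mice. The lowest and the highest mouse differed 101-fold, and WT normal mice alone reached from the lowest value of the series to nearly the highest. Every pair of groups overlapped, although 3 of the 4 KO ischemia mice were above every WT ischemia mouse. Ucp1 alone took 781227 reads over the 14 libraries, so sampling of reads adds little to this spread. Ordered by median, the groups ran KO ischemia, KO normal, WT normal and WT ischemia, at 2781, 1967, 639 and 304 CPM, and no neighbours in this order were separated beyond their spread.

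**Figure D1:**
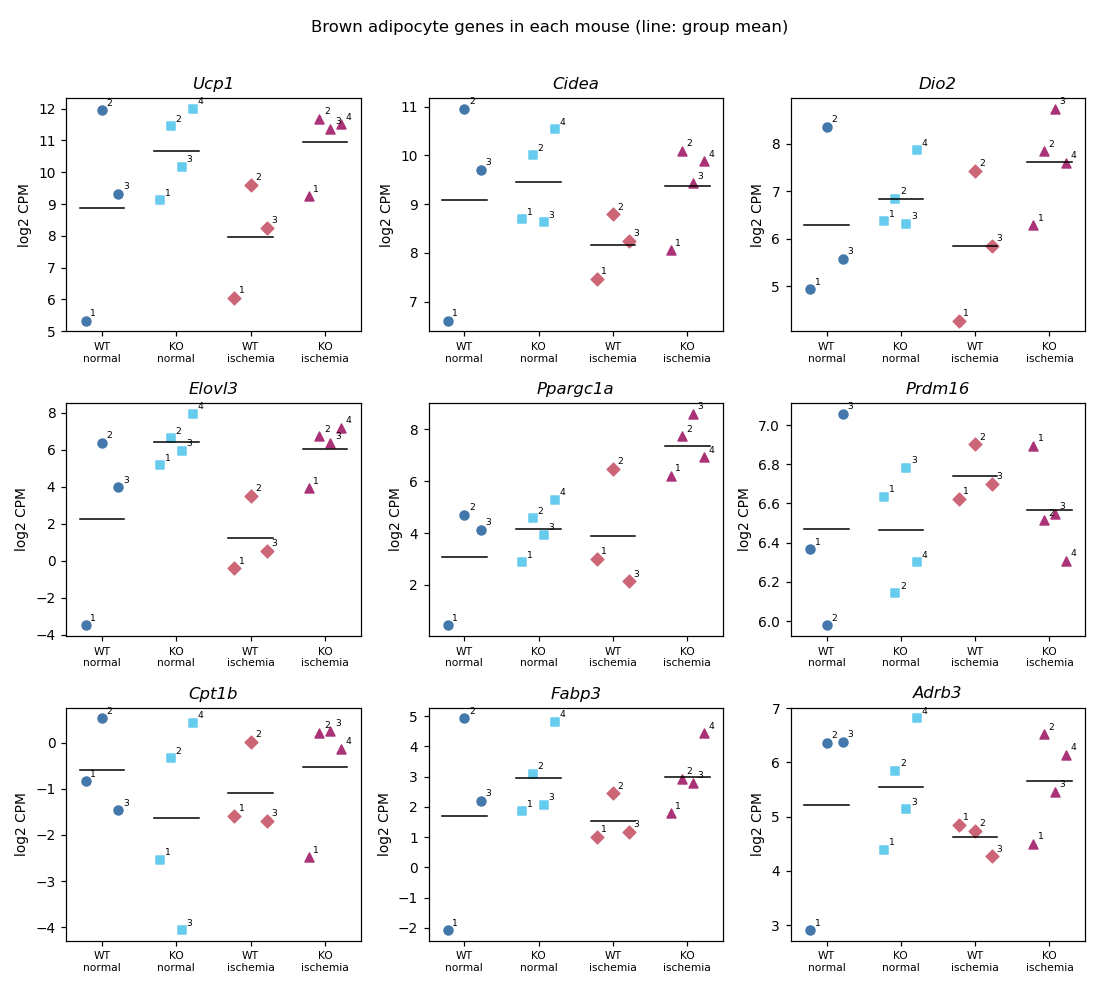
Level of the 9 brown adipocyte genes that passed the filter, as log2 CPM (y axis) in each mouse of the 4 groups (x axis); the number beside a point is the mouse and the line is the group mean. WT normal mouse 1 is the lowest point for 6 of the 9 genes, while Prdm16 stays between 63.0 and 133 CPM in all 14 mice.

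Compared per length of exon, Ucp1 and Cidea were the most abundant of the 10 genes, with medians of 588 and 508 CPM per kb over the 14 mice. Elovl3 followed at 24.7, Dio2 at 16.95, Adrb3 at 11.7, Prdm16 at 10.3, Fabp3 at 6.04, Ppargc1a at 3.79 and Cpt1b at 0.183 CPM per kb. Zic1 had a median of 0.

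The promoters of 4 of these genes are shown because the genes behaved differently across the mice: Ucp1 and Dio2 varied together, Ppargc1a differed between normal and ischemic KO mice, and Prdm16 barely varied. Each runs 5′ to 3′ from 250 bases before to 50 bases after the RefSeq start on GRCm38.p6, at chr8:83290098-83290397 (+) for Ucp1, chr12:90738989-90739288 (−) for Dio2, chr5:51567676-51567975 (−) for Ppargc1a and chr4:154636824-154637123 (−) for Prdm16. Capitals mark the cAMP response element TGACGTCA or its shorter core TGACGT, the estrogen-related receptor element TCAAGGTCA and the TATA box TATAAAA, each searched on both strands.
Ucp1: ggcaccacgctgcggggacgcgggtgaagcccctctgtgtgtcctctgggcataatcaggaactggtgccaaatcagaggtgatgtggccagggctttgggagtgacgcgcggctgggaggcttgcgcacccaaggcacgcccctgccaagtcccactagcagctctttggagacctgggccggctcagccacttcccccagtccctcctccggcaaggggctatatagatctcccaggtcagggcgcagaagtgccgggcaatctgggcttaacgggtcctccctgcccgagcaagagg
Dio2: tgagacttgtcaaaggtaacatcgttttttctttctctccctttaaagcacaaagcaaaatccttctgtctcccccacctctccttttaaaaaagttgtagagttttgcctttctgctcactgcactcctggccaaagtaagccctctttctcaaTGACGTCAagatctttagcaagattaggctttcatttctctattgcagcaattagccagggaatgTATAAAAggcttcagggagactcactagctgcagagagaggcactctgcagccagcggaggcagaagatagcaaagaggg
Ppargc1a: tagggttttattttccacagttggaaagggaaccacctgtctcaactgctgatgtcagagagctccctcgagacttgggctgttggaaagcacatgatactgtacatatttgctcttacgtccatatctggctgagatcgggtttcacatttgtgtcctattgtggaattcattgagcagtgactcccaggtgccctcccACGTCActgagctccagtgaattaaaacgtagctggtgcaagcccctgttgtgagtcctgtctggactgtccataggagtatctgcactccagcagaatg
Prdm16: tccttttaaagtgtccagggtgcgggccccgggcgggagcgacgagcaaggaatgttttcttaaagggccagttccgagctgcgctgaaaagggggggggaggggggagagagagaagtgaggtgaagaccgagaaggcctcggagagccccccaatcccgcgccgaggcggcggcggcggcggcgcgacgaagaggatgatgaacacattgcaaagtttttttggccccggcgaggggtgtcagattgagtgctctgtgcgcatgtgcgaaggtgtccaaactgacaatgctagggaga
The full cAMP response element, the site of the factor CREB that protein kinase A activates, was found in Dio2 at base −95 from the start and in 1.79% of all 32851 promoters of this length. The shorter core, which overlaps the full element in Dio2, was also found in Ppargc1a at base −50 and in Fabp3 at base −149, and in 7.51% of all promoters. The TATA box was in Dio2 alone among these, at base −30, and in 5.48% of all promoters. The receptor element was in none of the 6 member promoters of the table (those of Zic1 and Fabp3 are the others) and in 0.423% of all. The core was added to the search after the sequences had been read.

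Adrb3, the beta-adrenergic receptor that is typical of fat cells, stands at the start of the pathway. It was measured at 7.44, 82.1 and 83.3 CPM in WT normal mice and at 20.9, 57.3, 35.0 and 113 CPM in KO normal mice. After ischemia it was 28.7, 26.7 and 19.2 CPM in WT and 22.5, 91.8, 43.8 and 70.7 CPM in KO mice. The 3 WT ischemia mice lay close together, and 3 of the 4 KO ischemia mice lay above them. Of its exon bases, 24.9% also belong to a transcript annotated on the other strand.

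Dio2 encodes the deiodinase that makes active thyroid hormone inside the brown adipocyte. Its levels were 30.6, 328 and 47.8 CPM in WT normal mice, 82.7, 114, 79.4 and 233 CPM in KO normal mice, 19.4, 173 and 58.0 CPM in WT ischemia mice and 78.0, 229, 426 and 194 CPM in KO ischemia mice. In each WT group mouse 2 was far above the other two, and the KO ischemia group held 1 mouse above all others.

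Ppargc1a encodes PGC-1α, the coactivator that drives mitochondrial gene expression. Its levels were 1.30, 26.2 and 17.3 CPM in WT normal mice and 7.25, 23.8, 15.2 and 39.1 CPM in KO normal mice. After ischemia they were 7.97, 88.8 and 4.36 CPM in WT mice and 73.9, 213, 390 and 121 CPM in KO mice. All 4 KO ischemia mice were above all 4 KO normal mice. Among the WT ischemia mice only mouse 2 was above every normal mouse.

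Prdm16 encodes a transcription factor that sets and keeps brown adipocyte identity. It was measured at 82.4, 63.0 and 133 CPM in WT normal mice, 99.3, 70.5, 110 and 78.7 CPM in KO normal mice, 98.6, 120 and 104 CPM in WT ischemia mice and 119, 91.4, 93.5 and 79.2 CPM in KO ischemia mice. The highest mouse was 2.12 times the lowest, and the mouse with the second highest Ucp1 had the lowest Prdm16. Prdm16 was the only member that had a negative correlation with Ucp1 across the mice, while its correlation over the 14 mice was 0.69 with the summed smooth muscle markers and −0.71 with the summed endothelial markers.

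Zic1, a transcription factor that marks the classical brown fat depot between the shoulder blades, had 0 reads in 13 of the 14 mice. Each of these zeros allows a level of up to 0.0678 to 0.113 CPM (3 reads), for counting error only. KO normal mouse 1 had 18 reads, or 0.508 CPM, and its Ucp1 was the lowest of the KO normal group at 557 CPM.

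Cidea encodes a lipid droplet protein that is abundant in brown fat. It reached 97.8, 1985 and 834 CPM in WT normal mice, 412, 1028, 395 and 1481 CPM in KO normal mice, 178, 443 and 304 CPM in WT ischemia mice and 266, 1094, 689 and 940 CPM in KO ischemia mice. Its order of mice was close to that of Ucp1, with WT normal mouse 1 lowest, and no pair of groups compared was free of overlap.

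Elovl3, an enzyme that lengthens very long fatty acids and is induced by cold in brown fat, had the widest range of the 10 genes. It had 0.0295 CPM (1 read) in WT normal mouse 1, 82.6 CPM in mouse 2 and 15.6 CPM in mouse 3, and 35.7, 97.9, 62.0 and 248 CPM in KO normal mice. After ischemia it was 0.699, 11.5 and 1.41 CPM in WT mice and 15.0, 105, 81.9 and 145 CPM in KO mice. All 4 KO ischemia mice were above all 3 WT ischemia mice, although the gap between the nearest mice was small.

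Fabp3 and Cpt1b serve lipid burning and are also genes of heart muscle. Fabp3, a carrier of fatty acids in the cytosol, was measured at 0.177, 30.5 and 4.57 CPM in WT normal mice, 3.55, 8.51, 4.16 and 28.0 CPM in KO normal mice, 1.95, 5.38 and 2.21 CPM in WT ischemia mice and 3.39, 7.53, 6.93 and 21.5 CPM in KO ischemia mice. The 2 highest KO mice were mouse 4 of each condition, which are both among the 3 libraries with heart muscle markers, but the highest value of all was in WT normal mouse 2, where those markers summed to 15.0 CPM. The part of heart muscle RNA in Fabp3, Cpt1b and Ppargc1a was not tested.

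Cpt1b, the muscle and brown fat form of the enzyme that admits fatty acids into mitochondria, had only 0 to 42 reads per mouse, at most 1.38 CPM. Of its 3372 exon bases on chromosome 15, 81.4% also belong to the read-through gene Gm44502 on the same strand, which was listed with 0 reads in every mouse. How the authors' counting handled reads shared by these genes is not given in the sources used here, so the low level of Cpt1b is uncertain. The other members share 0% to 24.9% of their exon bases with other genes.

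The members did not vary independently. Over the 14 mice, log2 CPM of Elovl3 followed Ucp1 with a Pearson correlation of 0.96, Cidea with 0.93, Fabp3 with 0.91, Dio2 with 0.89, Adrb3 with 0.82 and Ppargc1a with 0.74. Cpt1b was at 0.44 and Prdm16 at −0.36. Among Ucp1, Cidea, Dio2, Elovl3, Fabp3 and Adrb3, the 15 pairs had correlations of 0.60 to 0.96. The points share libraries, depth and scaling, and 298 genes, or 1.68% of those tested, were over 0.9 with Ucp1. These values therefore describe the libraries, and a link between the genes was not tested. With the group means removed, the correlations with Ucp1 were 0.96 for Elovl3 and Cidea and 0.83 for Ppargc1a, so mice of the same group also shared this variation.

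**Figure D2:**
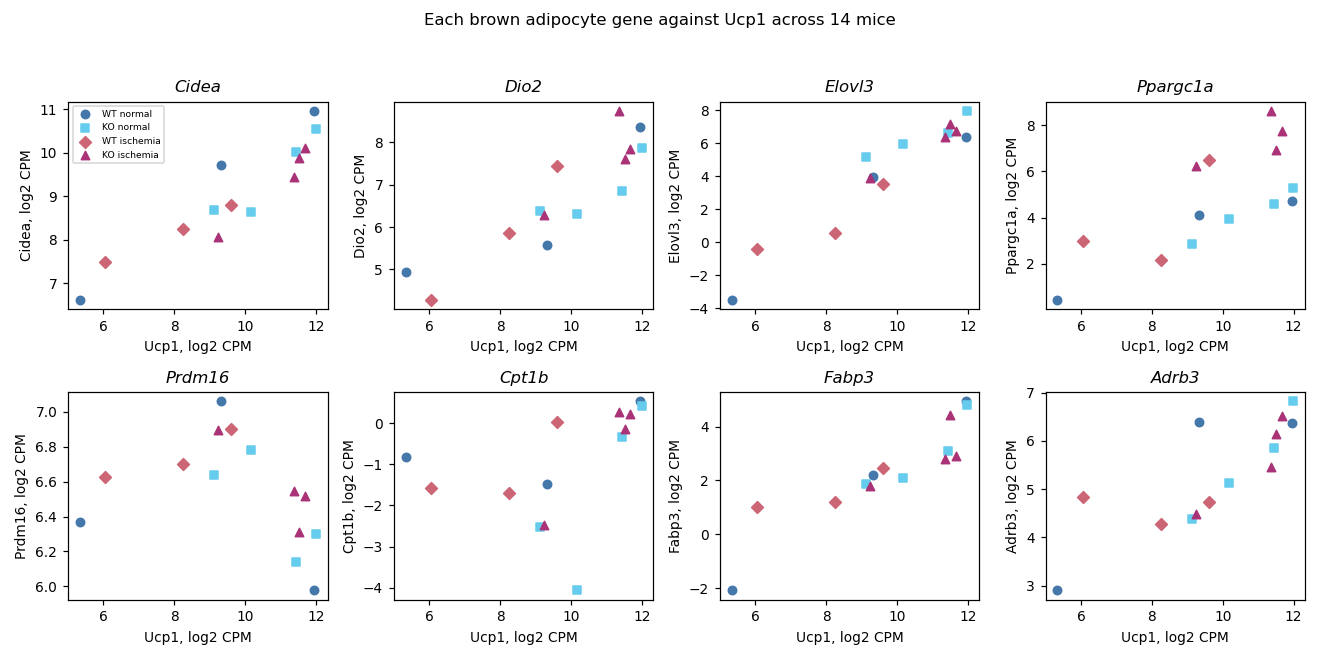
Log2 CPM of each member (y axis) against log2 CPM of Ucp1 (x axis), 1 point per mouse and 1 colour and marker per group. Elovl3, Cidea, Fabp3 and Dio2 follow Ucp1 across all groups, Ppargc1a splits by condition in KO mice, and Prdm16 does not rise with Ucp1 (r = −0.36).

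The 10 genes outside the members with the highest correlation to Ucp1 were 1700037H04Rik, Hsd17b12, Poln, Agpat2, Lace1, Gsta4, Sfxn5, Gpd1, Taldo1 and Dhrs7, at 0.97 each. Hsd17b12 and Agpat2 are enzymes of fatty acid and triglyceride synthesis, Gpd1 makes glycerol phosphate and Taldo1 is an enzyme of the pentose phosphate pathway. Hadha, Acadl, Acadm and Ech1, enzymes of fatty acid oxidation, were at 0.94, 0.91, 0.90 and 0.86. Summed over each list, the 12 fatty acid oxidation genes followed Ucp1 at 0.92 and the 12 markers of white adipocytes at 0.81. A few genes weigh heavily in the white adipocyte sum. In WT normal mouse 2, Car3 gave 10445 and Cfd 6671 of its 18861 CPM. Taken gene by gene, the median was 0.91 for fatty acid oxidation, 0.50 for white adipocyte markers and 0.29 for the 7 secreted factors of brown fat. The white adipocyte markers ran from −0.12 to 0.895. The summed smooth muscle markers were at −0.60 with Ucp1, and the summed endothelial markers at 0.31.

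The spread of most members inside a group was large for this series. The within-group SD of log2 CPM was 1.94 for Ucp1, 2.68 for Elovl3, 1.88 for Fabp3 and 1.66 for Ppargc1a, against a median of 0.54 over the genes tested. Of all genes tested, 98.4% had a smaller SD than Ucp1, 99.7% than Elovl3, 98.1% than Fabp3 and 95.8% than Ppargc1a. For Cpt1b, Dio2, Cidea and Adrb3 the shares were 91.2%, 84.2%, 84.0% and 80.3%. The biological coefficient of variation, edgeR's fitted spread between mice, ranked them less high. By it 83.6% of genes were below Ucp1, 89.65% below Elovl3, 84.0% below Fabp3 and 81.5% below Ppargc1a. Prdm16 had an SD of 0.33, and 28.3% of the genes were below it. WT normal mice 1 and 2 set much of this: mouse 1 was the lowest of all for 6 of the 9 tested members, and mouse 2 the highest for 3. White adipocyte markers also ran from 691 CPM in WT normal mouse 1 to 18861 CPM in mouse 2, and smooth muscle markers from 21951 to 7461 CPM. The part of fat content in these differences was not tested.

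**Figure D3:**
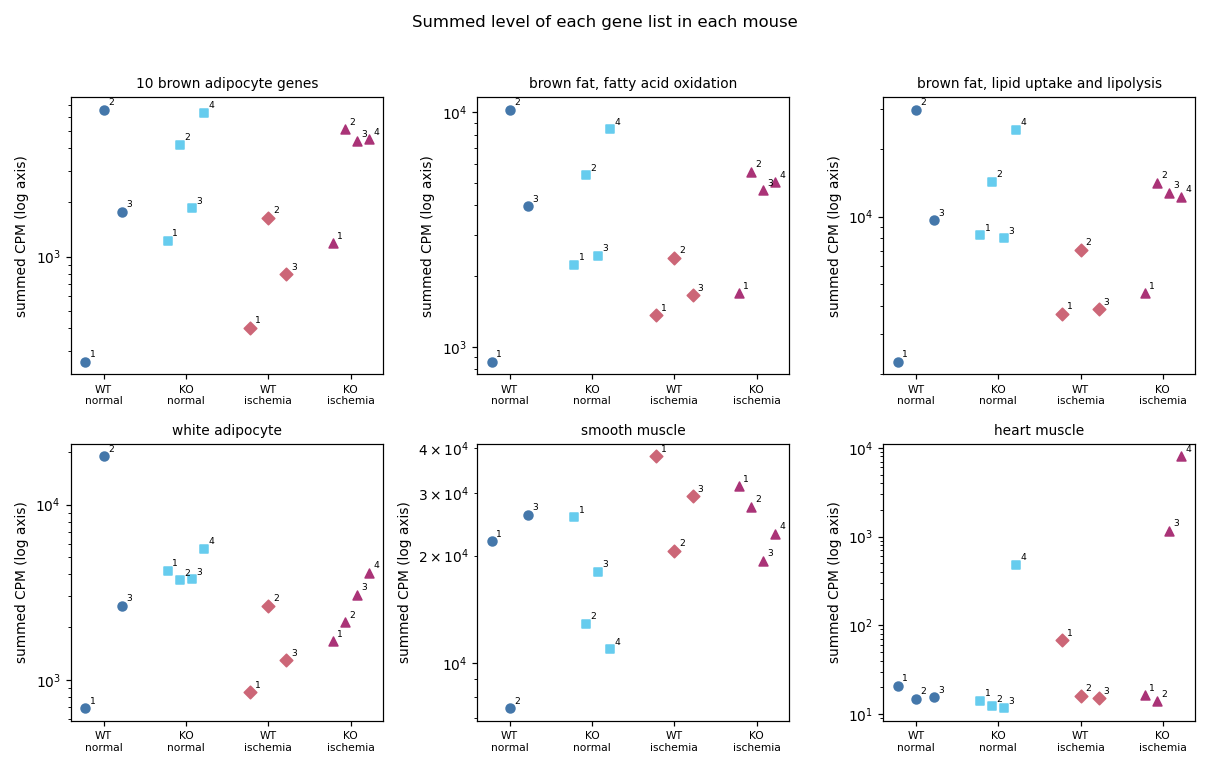
Summed CPM (y axis, log scale) of 6 gene lists in each mouse of the 4 groups, with the mouse number beside each point. WT normal mice 1 and 2 mark the ends of the fat lists, at 691 and 18861 CPM for white adipocyte markers, and heart muscle markers exceed 100 CPM only in KO normal mouse 4 and KO ischemia mice 3 and 4.

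Under normal conditions, KO was compared with WT to ask what loss of a Drp1 copy changes in the resting vessel. By edgeR's quasi-likelihood test over all genes, with an FDR (Benjamini-Hochberg) under 0.05 and a fold change over 1.5, 0 of the 9 tested members were called, beside 0% of all genes tested. With an unadjusted p under 0.05 the members numbered 0, beside 5.25% of all genes, and DESeq2 called 0 members and 0.232% of all genes. No member was higher in every KO mouse than in every WT mouse, beside 2.59% of all genes, and none was lower in every KO mouse, beside 1.9%. Ucp1 had a log2 fold change of 0.47 (SE 1.11) and Elovl3 1.76 (SE 1.37), and the other 7 lay between −0.46 and 0.52. The median over the members was −0.05, against −0.02 over all genes. Leaving out WT normal mouse 2 moved Ucp1 to 2.66, Dio2 to 1.70 and Fabp3 to 2.23. In the 13 mice of lane 8 Ucp1 was at 0.10.

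After ischemia, the same comparison asks whether the injured vessel differs by genotype. The 3 largest differences were Elovl3, with a log2 fold change of 4.27 (SE 1.56), Ucp1 with 2.63 (SE 1.21, 6.17-fold) and Ppargc1a with 2.57 (SE 1.10, 5.93-fold), all higher in KO. None passed: edgeR called 0 members beside 0% of all genes, the FDR of each of these 3 was 0.715, and DESeq2 called 0 members and 0.102% of all genes. With an unadjusted p under 0.05 there were 3 members, beside 6.48% of all genes. Elovl3 was the only member whose groups did not overlap, beside 4.74% of all genes with KO higher in every mouse and 5.97% with KO lower. Of the 9 members, 8 had a higher fitted level in KO and Prdm16 a lower level (log2 fold change −0.16, SE 0.25), and the median was 1.47 against −0.03 over all genes. Leaving out WT ischemia mouse 2 moved Ppargc1a to 5.07 and Elovl3 to 6.41, and without the 3 libraries with heart muscle markers Ucp1 was at 2.34, Elovl3 at 3.74 and Ppargc1a at 2.10.

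In WT mice, ischemia was compared with normal conditions. No member was called (0 of 9, beside 0.0113% of all genes), DESeq2 called 0 members and 0.61% of all genes, and 0 members had an unadjusted p under 0.05 beside 9.57% of all genes. No member was lower in every ischemia mouse than in every normal mouse, beside 4.42% of all genes, and none was higher in every ischemia mouse, beside 6.63%. Elovl3 had a log2 fold change of −2.86 (SE 1.498), Ucp1 −2.01 (SE 1.22), Fabp3 −1.89 (SE 1.21), Cidea −1.66 (SE 0.83) and Adrb3 −1.21 (SE 0.76), whereas Ppargc1a stood at 1.17 (SE 1.10). The median was −1.21, against −0.01 over all genes. Whichever mouse was left out, Elovl3 stayed between −4.96 and −0.79, Cidea between −2.20 and −0.61 and Adrb3 between −1.74 and −0.84. Other members turned on 1 mouse: without WT normal mouse 2 Ucp1 was at 0.16, Dio2 at 1.08 and Fabp3 at 0.42, and without WT ischemia mouse 2 Ppargc1a was at −1.29.

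In KO mice, Ppargc1a was the member that differed most between ischemia and normal conditions, at 199.8 ± 139.6 CPM against 21.3 ± 13.6 CPM (SD, n = 4 each). Its log2 fold change was 3.23 (SE 1.02, 9.37-fold), with an FDR of 0.197 by edgeR's quasi-likelihood test, so it was not called. The members called were 0, beside 0.294% of all genes, and 1 member had an unadjusted p under 0.05, beside 13.2%. It was also the only member whose groups did not overlap, beside 5.49% of all genes with ischemia higher in every mouse and 5.6% with ischemia lower. Under DESeq2 its FDR was 0.0368, beside 3.43% of all genes called, and in a fit of the KO mice alone it was 0.037, beside 1.67% called. The log2 fold change was 2.68 to 3.70 with any 1 mouse left out. Without the 3 libraries with heart muscle markers it was 3.22, with an FDR of 0.54 by edgeR's quasi-likelihood test. That fit left only mice 1 and 2 in the KO ischemia group.

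The other members had values nearer to 0 in KO mice. Ucp1 had a log2 fold change of 0.14 (SE 1.02), Cidea −0.15 (SE 0.70), Elovl3 −0.35 (SE 1.20), Fabp3 −0.17 (SE 1.01), Adrb3 0.02 (SE 0.64) and Prdm16 0.10 (SE 0.23), while Dio2 was at 0.86 (SE 0.78) and Cpt1b at 0.60 (SE 1.12). The median over the members was 0.10, against −0.05 over all genes. Given these SEs, changes of about 2-fold in Ucp1 were not detectable in groups of 4 mice. The comparisons share groups, since KO ischemia and WT normal mice each enter more than 1 of them.

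**Figure D4:**
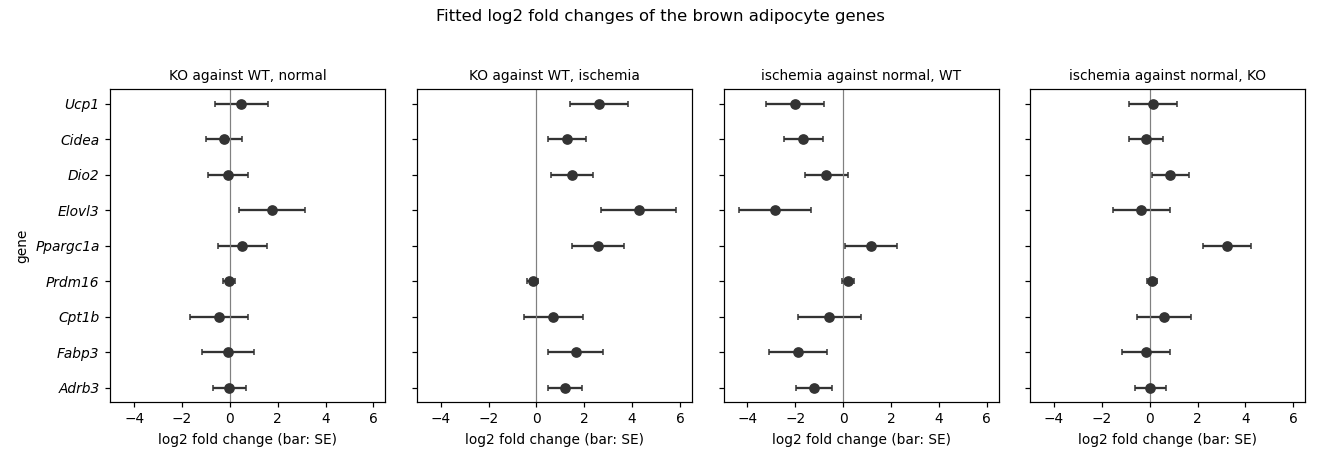
Fitted log2 fold change of the 9 tested members (x axis; bars are the SE) in each of the 4 comparisons. The members other than Ppargc1a and Prdm16 lie below 0 for ischemia in WT mice and mostly near 0 in KO mice, and Ppargc1a is at 1.17 and 3.23.

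The interaction asks whether ischemia acted differently in the 2 genotypes. By edgeR's quasi-likelihood test it was called for 0 members beside 0% of all genes, at an unadjusted p under 0.05 for 0 members beside 4.32% of all genes, and by DESeq2 for 0 members beside 0.0622%. Its log2 value was 2.15 (SE 1.58) for Ucp1, 2.51 (SE 1.87) for Elovl3 and 2.05 (SE 1.44) for Ppargc1a. Without WT normal mouse 2 the value for Ucp1 was 0.01.

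Because most members shared their variation between mice, each was also set against Ucp1 within the same library. Ppargc1a had 13.01, 8.53, 13.3 and 9.61 reads per 1000 Ucp1 reads in KO normal mice and 122.5, 65.2, 148 and 41.6 in KO ischemia mice. In WT mice it had 32.3, 6.64 and 27.1 under normal conditions and 120, 114 and 14.4 after ischemia. KO mice did not overlap between conditions, and 2 of the 3 WT ischemia mice were above every normal mouse. The share of all genes whose ratio to Ucp1 separates the KO groups in this way was not computed.

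Elovl3 had 64.0, 35.2, 54.0 and 60.9 reads per 1000 Ucp1 reads in KO normal mice and 24.9, 32.2, 31.0 and 49.6 in KO ischemia mice, against 0.733, 20.9 and 24.3 in WT normal mice and 10.6, 14.8 and 4.64 in WT ischemia mice. All 8 KO mice were above all 6 WT mice, though the nearest values of 24.9 and 24.3 nearly met. This ratio was chosen after its values were seen and was given no test. The share of all genes whose ratio to Ucp1 separates the genotypes in this way was not computed. On the log2 scale Elovl3 rose by 1.496 for each unit of Ucp1 across the mice. This slope pools both genotypes and includes WT normal mouse 1, which had 1 Elovl3 read. Over all mice together, the ratio therefore tended to be higher where Ucp1 was higher. Within a group this did not always hold: KO normal mouse 1 had the lowest Ucp1 of its group, 557 CPM, and the highest ratio, 64.0.

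**Figure D5:**
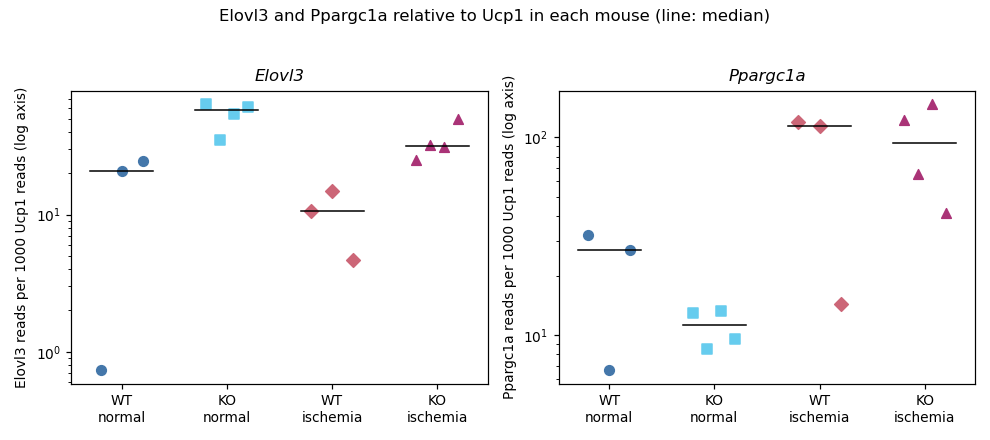
Reads of Elovl3 (left) and Ppargc1a (right) per 1000 reads of Ucp1 (y axis, log scale) in each mouse of the 4 groups; the line is the group median. Elovl3 is at 24.9 or more in all KO mice and at most 24.3 in WT mice, and Ppargc1a is at 8.53 to 13.3 in KO normal and 41.6 to 148 in KO ischemia mice.

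A fit held the mean level of 12 fatty acid oxidation genes as a covariate and was added after the data were seen. It gave the members' differences at a matched level of these genes. Their sum had correlations of 0.92 with Ucp1, 0.99 with Cidea and 0.59 with Ppargc1a in the same mice. Their own median log2 fold change for ischemia in WT mice was −1.55. The fit therefore takes out part of the members' own variation and of the group differences. Ppargc1a then had a log2 fold change of 3.38 (SE 0.68, 10.4-fold) for ischemia in KO mice, with an FDR of 0.0286 by edgeR's quasi-likelihood test, and it was the only member called, beside 1.83% of all genes. In WT mice it was 2.74 (SE 0.82, FDR 0.40), with 0 members called beside 0.0226% of all genes, and the interaction was 0.64 (SE 0.998, FDR 0.96), so no difference between the genotypes was shown. Ucp1 in WT mice turned from −2.01 to 1.004 for ischemia, and its difference between KO and WT after ischemia went from 2.63 to 0.72. Elovl3 in KO against WT mice was at 3.16 under normal conditions (SE 0.69, FDR 0.326) and 2.02 after ischemia (SE 0.68, FDR 0.82).

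The other genes of the brown fat program were taken from 6 lists of 73 genes in all. Of the 71 that were tested, edgeR called 0 in each of the 4 comparisons and the interaction. At an unadjusted p under 0.05 there were 0 for KO against WT under normal conditions, beside 5.25% of all genes, and 13 (18.3%) after ischemia, beside 6.48%. For ischemia there were 21 (29.6%) in WT mice, beside 9.57% of all genes, and 5 (7.04%) in KO mice, beside 13.2%, and the interaction had 4 (5.63%), beside 4.32%. DESeq2 called 1 list gene in each of 3 comparisons, which were chosen for naming after their values were seen: Ckmt2 for KO against WT after ischemia (beside 0.102% of all genes called), Adrb1 for ischemia in WT mice (beside 0.61%) and Fgf21 for ischemia in KO mice (beside 3.43%). Ckmt2, a creatine kinase of muscle mitochondria, had 0 or 1 read in every WT mouse, and its highest value, 239.9 CPM, was in KO ischemia mouse 4, where heart muscle markers summed to 8030 CPM. The part of heart muscle RNA in that call was not tested.

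In KO against WT mice after ischemia, 59 of the 71 genes had positive and 12 had negative log2 fold changes. All 12 fatty acid oxidation genes and all 16 tested genes of lipid uptake and lipolysis were positive, with medians of 1.24 and 1.05 against −0.03 over all genes, as were 12 of 13 in the list of mitochondrial isoforms and uncoupling partners. Of the signal genes 6 of 9 were positive, of the transcription factors 9 of 14 and of the secreted factors 4 of 7, with Crtc3 at −0.75, Slit2 at −0.69, Adm at −0.15 and Nfia at −0.12. For ischemia in WT mice 61 of the 71 were negative, among them all 12 and all 16 of those same lists, with medians of −1.55 and −1.49 against −0.01, whereas 5 of the 7 secreted factors were positive. For ischemia in KO mice 49 of the 71 were negative, and the medians of the fatty acid oxidation and lipid lists were −0.14 and −0.255, against −0.05. These lists were measured in the same libraries as the members and are no separate evidence.

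Of the genes that carry the signal to the adipocyte, the stimulatory G protein subunit Gnas ran from 870 to 3029 CPM and the protein kinase A subunits Prkaca and Prkar2b from 85.8 to 278 and from 12.9 to 814 CPM. Prkar2b followed Ucp1 with a correlation of 0.93, and Crtc3, a coactivator of CREB, ran against it at −0.84. Th, the enzyme of noradrenaline synthesis in sympathetic neurons and named after its values were seen, had 0 reads in every mouse. Of the transcription factors, Pparg, the master regulator of fat cells, had a correlation of 0.90 with Ucp1 and a range of 21.3 to 242 CPM, and Cebpa 0.82, whereas Nfia stood at −0.02 with a range of 117 to 192 CPM, about as even as Prdm16, and Cebpb at 0.45.

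Among genes of lipid handling, Fabp4, the fatty acid carrier of all fat cells, ran from 742 to 9272 CPM and Lpl, the lipase that takes up lipid from blood, from 234 to 3853 CPM. Pnpla2, the first lipase of lipid droplets, ran from 538 to 4678 CPM and Gpd1 from 81.8 to 6674 CPM. Of the mitochondrial genes, Cox8b, a respiratory chain subunit of muscle and brown fat, followed Ucp1 at 0.96 with a range of 11.8 to 489 CPM, and Idh3a and Letmd1 at 0.94 and 0.91. Kcnk3, a potassium channel of the plasma membrane, was at 0.93. Of the secreted factors, Vegfa and Nrg4 were at 0.85 and 0.91 with Ucp1, while Adm and Slit2 were at −0.25 and −0.39. Markers of beige adipocytes summed to only 0.297 to 5.68 CPM, low in all groups.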

How the data were processed

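RNA extracted from the superior mesenteric artery of 14 mice was sequenced, and the authors deposited 1 table of raw read counts per gene symbol and mouse. The submitters' processing notes name HISAT2 2.0.4 and mm10; the counting program, annotation and use of strand are not given in the sources used here, so reads of overlapping genes may be split in unknown ways. Columns were matched to mice by their titles, and 0 sample columns were left unused.

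The fit used edgeR 4.0.16 in R 4.3.3: filterByExpr, TMM scaling, a quasi-likelihood fit of all 14 mice with 1 coefficient per group, Benjamini-Hochberg adjustment over 17693 genes, and a call at FDR under 0.05 and a fold change over 1.5. SEs were derived from the F statistic. Levels are CPM, and log2 CPM used a prior count of 2. DESeq2 1.42.0, other scalings and filters, fits of the compared groups alone, the replicate number as a block and each mouse left out were the alternatives; 2 more were added after the data were seen. Total counts of 25612646 to 40255851 put 3 reads at 0.0678 to 0.113 CPM; the common biological coefficient of variation was 0.522. On simulated counts for ischemia against normal in KO mice, over 17156 genes, 16% of genes changed 2-fold, 84% changed 4-fold and 88% changed 8-fold were recovered. The changed genes were drawn at random from those over a limit on mean count, each at its own spread. The median coefficient of single genes was 0.385, against 0.925 for Ucp1, 0.861 for Ppargc1a, 1.13 for Elovl3 and 0.257 for Prdm16. These shares therefore do not carry over to the members with a wide spread.

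The members and gene lists were chosen with earlier results of these data known. Named genes are the members, Dnm1l, the 4 genes with the highest mean log2 CPM of each brown fat list and every gene of these lists called by edgeR (0), and the 10 genes most like Ucp1 by Pearson correlation; others are said to be chosen after their values were seen. Exon lengths and overlaps come from GENCODE M21 on GRCm38, and promoters from RefSeq on GRCm38.p6, which held 6 of the 10 members. The labels do not say whether mice of a group shared a litter, and p-values measure the spread between these mice. Libraries of a group differed by more than counting noise (chi-square of 64.8 to 775 per degree of freedom), so none was counted as a repeat.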

Additional observations from a re-analysis of the deposited data

Results flagged for a closer look

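In groups of 4 mice, a mouse far from the other 3 was looked for in 45 sets of values of the members and lists, and 4 were found. The limit used flags about 1 in 20 sets by chance if the values are independent and normally distributed. These values were not on a log scale and shared libraries, so that rate need not hold here. Zic1 was at 0.508 CPM (18 reads) in KO normal mouse 1 and at 0 in the other mice of its group. With those mice at 0, any read count would have been flagged, so this flag does not reflect the size of the value. Zic4, the neighbouring gene that shares 60 exon bases with Zic1, had 4 reads in KO normal mouse 1 and none in any other mouse.

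Summed heart muscle markers were at 8030 CPM in KO ischemia mouse 4, with 1159 CPM in the next mouse, and at 479 CPM in KO normal mouse 4, with 14.2 CPM in the next. In KO ischemia mouse 4, all 8 listed heart genes had reads. Of genes chosen after their values were seen, Myl2, a marker of the ventricle, was at most 0.0912 CPM there and Myh6 reached 3530 CPM. Summed skeletal muscle markers were at 171 CPM in the same mouse, with 31.4 CPM in the next. Ckm, a creatine kinase that heart muscle also makes, gave 162 CPM of that sum, while Acta1 of skeletal muscle was at most 1.93 CPM in any mouse. Fabp3 was 21.5 CPM in that mouse and 28.0 CPM in KO normal mouse 4, the highest of each KO group, and 30.5 CPM in WT normal mouse 2, where the heart list summed to 15.0 CPM. The part of heart muscle RNA in the members was not tested.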

How the results depend on the processing

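Member calls stayed at 0 in all comparisons under every alternative run, with these exceptions, all for Ppargc1a in KO mice after ischemia against normal: 1 member was called by DESeq2, 1 in the fit of only the groups compared and 1 with the fatty acid oxidation covariate. With 1 mouse left out, 0 members were called there. Over all genes, DESeq2 called 41 and 18 genes for KO against WT under normal conditions and after ischemia, 108 and 606 for ischemia in WT and KO mice and 11 for the interaction, against 0, 0, 2, 52 and 0 by edgeR. The fit of only the groups compared called 0 and 267 genes for ischemia in WT and KO mice, the covariate fit 4 and 323, and the fit without the 3 libraries with heart muscle markers 0 and 0. With 1 mouse left out, 0 to 29 genes were called for KO against WT under normal conditions (29 without WT normal mouse 2), 0 after ischemia, 0 to 3 for ischemia in WT mice, 5 to 174 in KO mice (174 without WT normal mouse 2) and 0 for the interaction. With the replicate block, 0 genes were called for ischemia in WT mice and 48 in KO mice; it changed no member call. Same-numbered mice of different groups had correlations of −0.146 to 0.316 (median 0.12, 19 pairs) in their deviations from the group means. Mice with other numbers had −0.382 to 0.328 (median −0.045, 54 pairs). The ranges overlapped, so these values do not settle whether the numbers pair the mice. Among the other values, 30 log2 fold changes moved by more than the spread within groups, as did 9 correlations with Ucp1 by over 0.1; 1071 and 127 did not. With at least 10 counts in every mouse, 6 members were tested. The spread between mice, and not depth, limits these results, except for Zic1 and Cpt1b.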

Other observations

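Genes chosen after their values were seen stood beside Ppargc1a in KO mice. Irf4, a transcription factor of brown fat that partners PGC-1α, ran from 24.5 to 54.3 CPM in KO normal mice. In KO ischemia mice it ran from 57.1 to 310 CPM. These groups did not overlap, beside 5.49% of all genes with ischemia higher in every KO mouse, and the nearest mice were close. WT mice ran from 3.54 to 185 CPM under normal conditions and from 4.07 to 59.1 CPM after ischemia. The log2 fold change of Irf4 for ischemia in KO mice was 2.45 (SE 1.03), with an FDR of 0.325 by edgeR's quasi-likelihood test. Fgf21, a hormone that brown fat can secrete, had 0 to 4 reads in KO normal and 16 to 21 reads in KO ischemia mice, and 5 to 40 reads in WT ischemia mice against 1 to 6 under normal conditions. Its FDR for ischemia in KO mice was 0.179 by edgeR, and DESeq2 called it.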
